A study of Mus musculus with 2 samples.

Results

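The basal and stratified epithelial keratins were followed in prostaspheres, the spheres that prostate epithelial cells form when grown in Matrigel. The members were 10 of the 27827 genes named on the array: Krt5, Krt14 and Krt15 of the basal layer, Krt17, Krt6a, Krt6b and Krt16 of stressed or activated epithelium, Krt10 of the layers above the basal cells, and Krt4 and Krt13 of the mucosal lining. The list was set with earlier results of these data known, and the study had already reported Krt5 and Krt14 from these arrays. All spots named for the members that were not controls were taken. This gave 12 probes, because Krt10 and Krt13 had 2 probes each and the other 8 genes had 1, with 1 spot per probe. All 12 were well above background in each of the 4 RNAs, so no member was lost to the filter on dim probes.

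Both arrays, Agilent whole mouse arrays on 1 slide, held an RNA labelled with Cy5 and an RNA labelled with Cy3. In the genotype comparison, wild-type prostaspheres exposed to tamoxifen (TAM) were in Cy5 and ER-Sox9flox/flox prostaspheres exposed to TAM were in Cy3. In the treatment comparison, ER-Sox9flox/flox prostaspheres given vehicle were in Cy5 and the same genotype given TAM was in Cy3. TAM activates the ERCre recombinase that the floxed cells carry, which deletes Sox9, a transcription factor of early prostate growth. The labels place all RNAs on the C57/Bl6J background and give urogenital sinus (UGS) epithelium at 16 days post conception as the source, 6 days in Matrigel with dihydrotestosterone, and then 6 days with 5 µM TAM or vehicle. The methods describe adult prostate as the tissue of the prostasphere assay, so the source is given here as the labels have it. The methods name the Rosa26ERCre line, whose recombinase is not restricted to epithelium, and the wild-type cells lack it. The genotype label reads Sox9 null on each RNA of the treatment array, and the RNA that kept Sox9 is marked there by vehicle alone. The source names in the labels call the Cy5 RNA SOX9 and the Cy3 RNA Ctrl, against the titles, genotypes and treatments. The latter were followed here, and the direction of every ratio rests on that reading. Nothing states whether cultures or animals were pooled or separate, so the spread between the 2 arrays may be technical. That spread also takes in the difference between the 2 comparisons, which are unlike in design. Neither an SD nor a p-value drawn from it therefore measures the spread of replicates alone. On the treatment array, exposure to TAM itself and loss of Sox9 cannot be told apart. A log2 ratio here is always Cy5 over Cy3, that is, Sox9-expressing over Sox9-deleted, and a mean ± SD is over the 2 arrays (n = 2). Since the dyes were never swapped, a dye effect and an effect of Sox9 cannot be told apart.

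Keratins are the intermediate filament proteins of epithelial cells. A filament is built from pairs of an acidic type I keratin and a basic type II keratin, and the pair a cell makes marks its place in the tissue: Krt5 with Krt14 in basal cells, Krt1 with Krt10 in the layers above them in the epidermis, Krt4 with Krt13 in mucosa, Krt6a or Krt6b with Krt16 or Krt17 in wounded or fast-growing epithelium, and Krt8 with Krt18 in simple, luminal epithelium. Basal cells of the prostate are known for Krt5, Krt14 and Krt15, and luminal cells for Krt8 and Krt18. Sox9 itself was read by 3 probes. The log2 ratios of the brightest were 2.69 in the genotype and 2.37 in the treatment comparison, and those of another, which crosses an exon junction, were 1.17 and 1.27. The third went the other way, with -0.997 and -1.22, so the check of the deletion rests on 2 of the 3 probes.

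The oligos that read the keratins are 60 bases long, and those on which the results turn are printed in the sense of the mRNA with their mm9 positions, all on the minus strand. Krt5 and Krt14 are shown as the basal pair, Krt6b because its probe is annotated with a neighbouring gene too, and both probes of Krt10 and of Krt13 because the probes of each gene are compared with each other. Of the Krt5 probe only the last 30 bases are given, and their capitals mark the signal for polyadenylation, which places this probe at the 3′ end of the transcript.
Krt5, chr15:101537514-101537573: tgacttcctccagagtctgtccAATAAAat
Krt14, chr11:100064683-100065288: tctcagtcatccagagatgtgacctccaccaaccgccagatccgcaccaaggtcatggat
Krt6b, chr15:101509450-101509509: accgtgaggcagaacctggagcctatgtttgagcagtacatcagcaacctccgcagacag
Krt10 probe 1, chr11:99246939-99247281: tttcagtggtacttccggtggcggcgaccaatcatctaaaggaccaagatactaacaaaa
Krt10 probe 2, chr11:99247994-99248053: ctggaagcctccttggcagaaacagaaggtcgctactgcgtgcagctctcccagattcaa
Krt13 probe 1, chr11:99982471-99982530: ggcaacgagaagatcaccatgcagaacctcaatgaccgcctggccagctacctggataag
Krt13 probe 2, chr11:99980710-99980948: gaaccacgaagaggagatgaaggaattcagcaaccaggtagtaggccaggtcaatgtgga
The probes of Krt14, Krt4, the first of Krt10 and the second of Krt13 span 606, 579, 343 and 239 bases of the genome, more than their own length, and therefore cross an exon junction. The longest run of bases that a member's probe shared with any probe of another gene was 12 to 14. The annotation in the scanner files gives transcripts of both Krt6a and Krt6b for the Krt6b probe, so its signal cannot be assigned to Krt6b alone. Cross-hybridisation to transcripts of related keratins was not tested.

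Krt5 and Krt14, the filament pair of basal cells, were about 4-fold brighter in RNA that kept Sox9. Brightness is given in intensity units after normalization, and it can be compared between RNAs for 1 probe but not between probes. Krt5 had a brightness of 104115 in wild-type RNA and 23779 in the deleted RNA of the genotype array, and of 89953 in vehicle RNA and 23883 in the deleted RNA of the treatment array. Krt14 had 134223 and 31986 on the genotype array, and 109945 and 30355 on the treatment array. Both genes were thus high in the 2 Sox9-expressing RNAs and low in the 2 deleted RNAs. For Krt5 the log2 ratios were 2.13 and 1.91, a mean of 2.02 ± 0.15 or 4.06-fold, with a limma adjusted p of 0.0653. For Krt14 they were 2.07 and 1.86, a mean of 1.96 ± 0.15 or 3.90-fold, with the same adjusted p of 0.0653. Neither passed an adjusted p of 0.05.

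Krt15, a type I keratin of basal cells with no fixed partner of its own, was also brighter in the Sox9-expressing RNAs, at a smaller size. Its brightness was 99315 and 48227 on the genotype array and 101050 and 47404 on the treatment array. The 2 deleted RNAs were nearly alike and so were the 2 Sox9-expressing RNAs. The log2 ratios were 1.04 and 1.09, a mean of 1.07 ± 0.04 or 2.10-fold (limma adjusted p 0.0883). The difference between the Krt5 and Krt15 log2 ratios was 1.09 in the genotype and 0.82 in the treatment comparison, so the basal keratins differed among themselves in size.

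**Figure D1:**
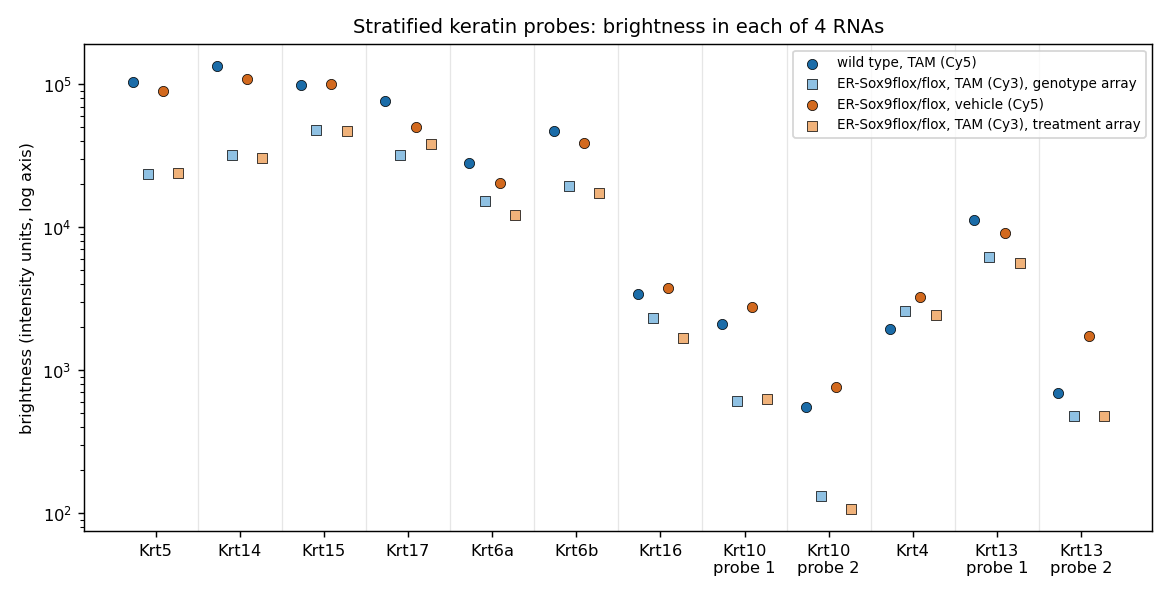
Brightness of each of the 12 stratified keratin probes in each of the 4 RNAs, in intensity units on a log axis; circles are the Sox9-expressing RNAs (Cy5) and squares the Sox9-deleted RNAs (Cy3), and heights of different probes cannot be compared. The circles lie above the squares of their own array for every probe except Krt4, whose wild-type value of 1927 lies below the 2590 of the deleted RNA.

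Among the keratins of stressed and activated epithelium, 4 of 4 were brighter in the Sox9-expressing RNA of both arrays, with log2 ratios from 0.38 to 1.28, and of these 4 Krt6b alone reached 2-fold on each. Over all tested genes 33.8% were higher on both arrays. Krt6b, a type II keratin of wounded epidermis and hair follicle, had a brightness of 47147 and 19473 on the genotype array and 39013 and 17427 on the treatment array. Its log2 ratios were 1.28 and 1.16, with a mean of 1.22 ± 0.08 or 2.33-fold (limma adjusted p 0.0883). Krt6a, its close relative and neighbour, had 27958 and 15358 on the genotype array and 20340 and 12286 on the treatment array. Its log2 ratios of 0.86 and 0.73 gave a mean of 0.80 ± 0.10 or 1.74-fold (limma adjusted p 0.100). Both genes were thus higher in the Sox9-expressing RNA of each array.

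The type I partners Krt16 and Krt17 were the members of this group with unequal arrays. Krt17, which many basal and regenerating epithelia make, had a brightness of 75954 in wild-type and 31958 in deleted RNA on the genotype array. On the treatment array it had 50074 in vehicle and 38378 in deleted RNA. The log2 ratios were therefore 1.25 and 0.38, with a mean of 0.82 ± 0.61 (limma adjusted p 0.233). Krt16, the partner of Krt6 in wounded skin, had 3410 and 2329 on the genotype array and 3736 and 1671 on the treatment array. Its log2 ratios were 0.55 and 1.16, with a mean of 0.86 ± 0.43 (limma adjusted p 0.177), and so its larger value was on the array where Krt17 had its smaller one.

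Krt10, the type I keratin that epithelial cells take up when they leave the basal layer, was lower in both deleted RNAs by both of its probes. The brighter of them, probe 1, had a brightness of 2093 and 610 on the genotype array and 2760 and 626 on the treatment array. Its log2 ratios were 1.78 and 2.14, a mean of 1.96 ± 0.26 or 3.89-fold (limma adjusted p 0.0873). Probe 2 had 553 and 131 on the genotype array and 760 and 106 on the treatment array, with log2 ratios of 2.07 and 2.84 and a mean of 2.46 ± 0.54 (limma adjusted p 0.0947). The probes agreed in direction on both arrays, and the dimmer one had the larger ratios. The size of the ratio of probe 2 depended on how the background was treated, and its mean signal before any correction was 36.3 and 41.8 in the deleted RNAs: its mean was 3.13 with an offset of 10, 3.32 without background subtraction and with the authors' values, and 4.77 with the scanner software's ratios.

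Krt1, the type II partner of Krt10 and not a member, was dim. Its tested probe had a brightness of 190 and 275 in wild-type and vehicle RNA and was not well above background in either deleted RNA. The log2 ratios of that probe were 0.74 and 1.59, a measured mean of 1.16 or 2.24-fold (limma adjusted p 0.172). Because the signal in the deleted RNAs was not well above background, the size of this ratio is not settled. Another probe under the name Krt1, which the annotation places on the opposite strand, was not well above background in any RNA.

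The mucosal pair was the least even. Krt13, the type I keratin of non-keratinized stratified epithelia, had a brightness of 11260 and 6224 on the genotype array and 9188 and 5658 on the treatment array by its brighter probe. The log2 ratios of this probe were 0.86 and 0.70, a mean of 0.78 ± 0.11 or 1.71-fold (limma adjusted p 0.106). By its dimmer probe, Krt13 had 693 and 477 on the genotype array and 1731 and 478 on the treatment array, and the log2 ratios were 0.54 and 1.86, a mean of 1.20 ± 0.93 (limma adjusted p 0.234). The 2 probes of Krt13 agreed in direction but not in size, and the vehicle RNA was the one in which the dimmer probe stood out.

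Krt4, the type II partner of Krt13, had opposite signs on the 2 arrays. Its brightness was 1927 in wild-type and 2590 in deleted RNA on the genotype array, and 3273 in vehicle and 2443 in deleted RNA on the treatment array. The log2 ratios were -0.43 and 0.42, with a mean of -0.00 ± 0.60 (limma adjusted p 0.996). The deleted RNAs lay between the 2 Sox9-expressing RNAs.

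**Figure D2:**
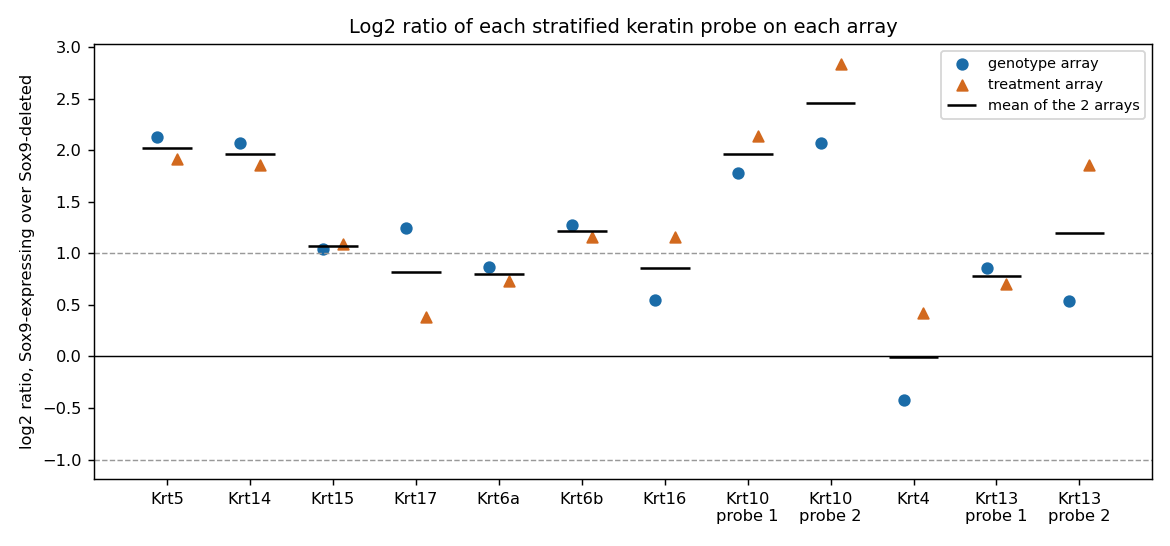
Log2 ratio of Sox9-expressing over Sox9-deleted RNA for each of the 12 stratified keratin probes; circles are the genotype array, triangles the treatment array, black lines the mean of the 2, and dashed lines mark 2-fold in either direction. Krt5, Krt14, Krt15, Krt6b and both Krt10 probes have both points above the upper dashed line, and Krt4 has a point on each side of 0.

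Counted together, 9 of the 10 genes had a log2 ratio above 0 on each array, where 33.8% of the 15131 tested genes were. The count did not depend on the scaling: it was 9 under every other normalization and filter that kept both arrays, with Krt4 the exception each time. At least 2-fold on both arrays were 5 of the 10, Krt5, Krt14, Krt15, Krt6b and Krt10, where 0.377% of tested genes (57) were at least 2-fold higher on both and 24 genes were at least 2-fold lower. That split of 57 and 24 was 97 and 7 with median centring of each array and 211 and 268 with the ratios of the scanner software. The keratins past 2-fold were Krt5, Krt14 and Krt10 with the scanner software's ratios, and the same 3 with the arrays scaled to 1 spread. Median centring added Krt17 and Krt6a to the 5. On the genotype array alone 6 genes were past 2-fold, with Krt17 added, and on the treatment array alone 6, with Krt16 added. Without the Krt6b probe the count was 4. The list was set with earlier results of these data known, so these counts are not independent evidence.

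No keratin probe passed limma's test at an adjusted p of 0.05 (0 of 12), where 0.0088% of the 22731 tested probes did (2, both lower in Sox9-expressing RNA). At an unadjusted p under 0.05 limma took 11 of 12, with Krt4 left out, where it took 17.5% of tested probes (3976). The methods' t-test took 4 of 12 at an unadjusted p under 0.05, where it took 1934 of all tested probes. After Benjamini-Hochberg adjustment it took 0 of 12 and 0 of all tested probes. With 2 arrays, the smallest 2-sided p that an exact permutation of signs can give is 0.5, so the test rests on the spread that limma shares across probes. With the authors' processed values, 5 of 12 probes passed, those of Krt5, Krt14, Krt6b and Krt10, where 68 of all tested probes did. With median centring 11 of 12 passed, where 521 of all tested probes did. The median log2 ratio of the 10 genes was 1.15 in the genotype and 1.13 in the treatment comparison, beside -0.01 and 0.01 over all tested genes.

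Set side by side by filament pair, the basal partners had nearly equal log2 ratios, and the partners of the mucosal and stress keratins differed on at least 1 array. The type II minus type I difference for Krt5 and Krt14 was 0.06 on each array. For Krt4 and the brighter probe of Krt13 it was -1.28 and -0.28. With the dimmer Krt13 probe, whose log2 ratios were 0.54 and 1.86, the larger difference falls on the treatment array instead. None is given for Krt1 and Krt10, since Krt1 was not well above background in the deleted RNAs. Between Krt6a and Krt17 the difference was -0.38 and 0.34, and between Krt6a and Krt16 it was 0.31 and -0.43, opposite in sign on the 2 arrays in each case. Krt6b differed from Krt17 by 0.03 and 0.78, and from Krt16 by 0.73 and 0.00. These differences have no test of their own.

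The 4 RNAs carry 4 different numbers in the labels, and both arrays hold an RNA of ER-Sox9flox/flox cells given TAM, so the members were also compared across arrays. As reported here, the genotype minus treatment difference in log2 ratio was positive for 6 of the 12 probes. It was 0.87 for Krt17, -0.61 for Krt16, -0.85 for Krt4, -0.76 for the dimmer probe of Krt10 and -1.31 for the dimmer probe of Krt13. That of the dimmer Krt10 probe was -0.09 without background subtraction and 0.24 with the scanner software's ratios, so it has no settled direction. Nor have those of Krt5, Krt14 and Krt15. They were -0.42, -0.43 and -0.71 with median centring, and 1.52, 1.48 and 0.63 with the arrays scaled to 1 spread. Krt17, Krt16, Krt4 and the dimmer probe of Krt13 kept their signs. The count of positive differences thus depends on the scaling, and its share over all tested genes was not counted. Over all tested genes the median absolute difference was 0.137 and the 95th percentile was 0.676. Krt5, Krt14 and Krt15, with 0.22, 0.21 and -0.05 as reported here, lay below that percentile. So did Krt16, Krt6a with 0.14, Krt6b with 0.11, and the brighter probes of Krt10 and Krt13 with -0.36 and 0.16. Lying below it was therefore not particular to the basal keratins.

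By RNA, Krt4 and the dimmer probe of Krt13 differed most between the 2 Sox9-expressing RNAs, and Krt16 and Krt6a most between the 2 deleted RNAs. Wild-type minus vehicle RNA on the log2 scale was 0.60 for Krt17, -0.76 for Krt4 and -1.32 for the dimmer probe of Krt13, against a 95th percentile of absolute differences of 0.639 over all tested genes. The deleted RNA of the genotype array minus that of the treatment array was 0.48 for Krt16, 0.32 for Krt6a, 0.30 for the dimmer probe of Krt10 and -0.26 for Krt17, against a 95th percentile of 0.223. Of the 12 keratin probes 6 were highest in vehicle RNA, those of Krt15, Krt16 and Krt4, both of Krt10 and the dimmer one of Krt13. The same RNA was the highest for 7 of 8 stromal markers, with Dcn the exception, for 5 of 5 smooth muscle markers and for 6 of the 6 skeletal muscle markers that passed the filter (of 7). The share of all tested genes that were highest in vehicle RNA was not counted, so these counts have no background beside them. The summed brightness of the stromal markers was 80114 in vehicle RNA, of which Col1a2 gave 31443, and 31648 to 55932 in the other RNAs. That of the smooth muscle markers was 32566 in vehicle RNA and 13656 to 22758 in the others, and that of the skeletal muscle markers 6748 and 1110 to 2331. Of the genes that define the skeletal muscle lineage, Myog had a brightness of 377 in vehicle RNA and 109 to 207 in the others, and Myod1 was below the filter. Their part in the keratin values was not tested. In an array of bulk RNA, fewer cells of a type and less RNA per cell cannot be told apart.

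Markers of stroma and muscle had medians of opposite sign on the 2 arrays, where Krt5 and Krt14 were near 2 on both. The median log2 ratio of the stromal markers was -0.74 in the genotype and 0.55 in the treatment comparison, that of the 5 smooth muscle markers -0.40 and 0.43, and that of the skeletal muscle markers -0.99 and 1.79. For the 7 epithelial markers, which hold Krt8 and Krt18, the median was -0.28 and -0.74. Of the immune markers 3 of 7 and of the endothelial markers 2 of 4 passed the filter, and none of these 5 genes reached 2-fold on both arrays. Epcam, a defining marker of epithelium, had a brightness of 3813 to 5541 in the 4 RNAs and was measured in each.

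**Figure D3:**
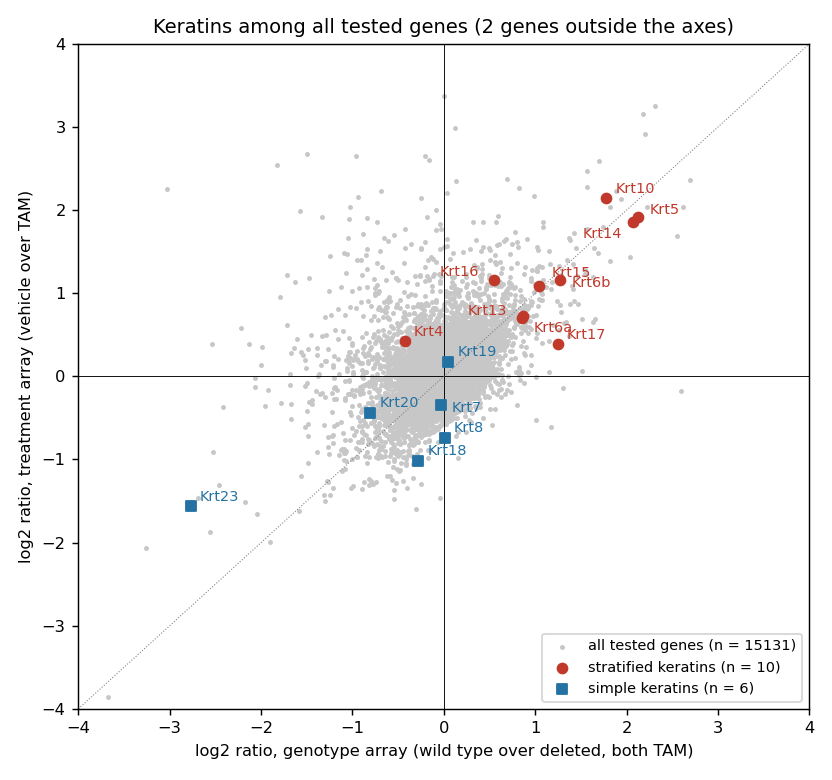
Log2 ratio of each of 15131 tested genes (grey) on the genotype array (horizontal axis) and the treatment array (vertical axis), with the 10 stratified keratins as red circles and 6 simple keratins as blue squares; the dotted line marks equal values and 2 genes lie outside the axes. Krt5, Krt14 and Krt10 lie near 2 on both axes, Krt4 at -0.43 and 0.42, and Krt23 at -2.77 and -1.57.

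The keratins of simple epithelium were the group set against the stratified ones. Of 6 tested, 1 was higher on both arrays and 4 were lower on both, and the median log2 ratio was -0.16 on the genotype array and -0.59 on the treatment array. All 15131 tested genes held 5117 that were higher and 5105 that were lower on both. Stratified minus simple, the medians differed by 1.30 and 1.71, a mean of 1.51 ± 0.29, and with 2 arrays it allows no exact test below a p of 0.5. Krt8, the luminal type II keratin, had log2 ratios of 0.01 and -0.74, and by a second probe -0.42 and -1.05, so that the probes differ in sign on the genotype array. Krt18, its partner, had -0.28 and -1.01. Krt19 had 0.05 and 0.18, and Krt7 had -0.04 and -0.35 by its brighter probe and -0.66 and -0.59 by the other. Krt23, a type I keratin, was the keratin furthest in the other direction. Its brightness was 2717 and 18499 on the genotype array and 5354 and 15845 on the treatment array, with log2 ratios of -2.77 and -1.57 and a mean of -2.17 ± 0.85 (limma adjusted p 0.136). With median centring, none of the 6 was 2-fold on both arrays.

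Keratin genes lie in 2 clusters, the type I genes on mouse chromosome 11 and the type II genes, with the type I gene Krt18 at the end, on chromosome 15. Only keratin genes named on the array were counted. By the mm9 positions of the probes, the chromosome 11 cluster held 24 of them over 1032 kb, of which 10 were tested and 6 were members. The chromosome 15 cluster held 20 such genes over 683 kb, of which 15 were tested and 4 were members. Of the 15 tested keratin genes of both clusters that were not members, 0 were 2-fold higher on both arrays and 1, Krt23, was 2-fold lower. Neighbours were alike in places and unlike in others, and whether position orders the ratios was not tested. Krt6b, Krt6a and Krt5 lie in a row and were all higher on both arrays, as were Krt14, Krt16 and Krt17. Krt5 lies 16.7 kb from Krt6a by the probes' starts. Krt19, with 0.05 and 0.18, lies between Krt15 and Krt14. Krt10 lies 42.8 kb from Krt20, which had -0.80 and -0.44, and 736 kb from Krt13.

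**Figure D4:**
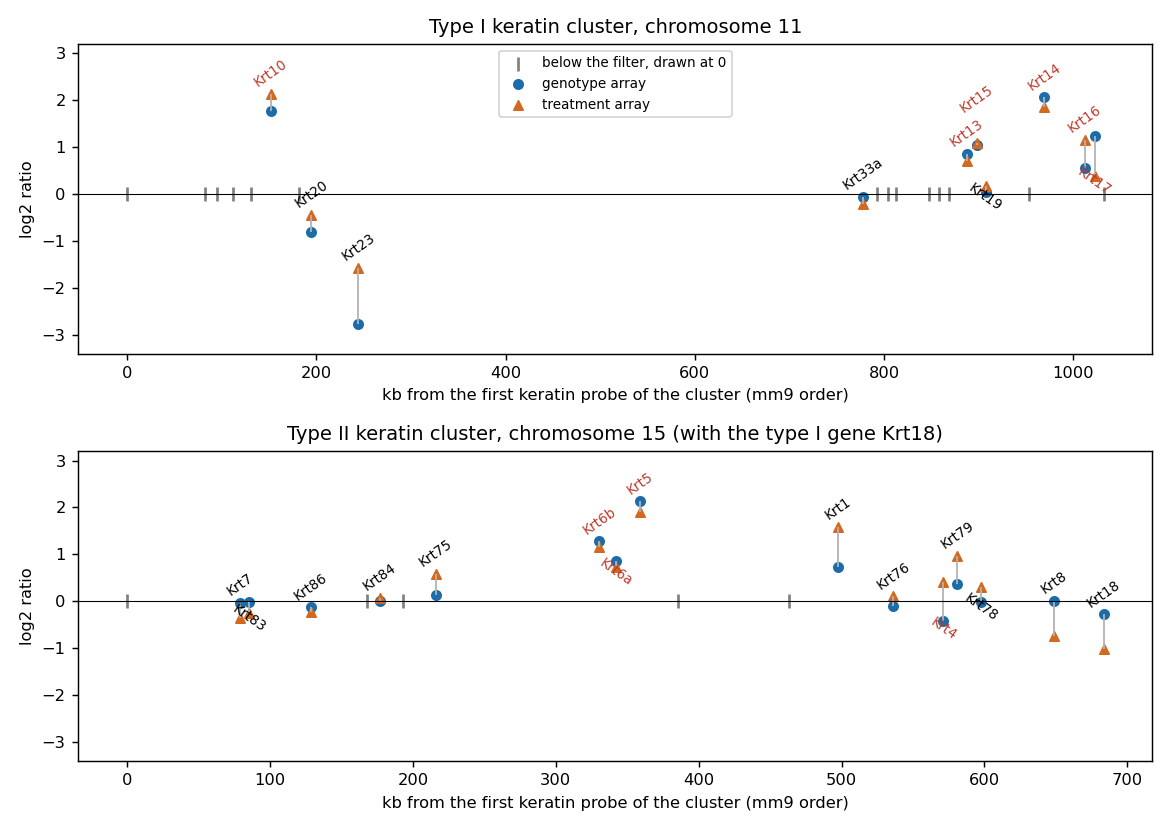
Log2 ratios of keratin genes by position in kb from the first keratin probe of each cluster, chromosome 11 above and chromosome 15 below. Circles are the genotype array, triangles the treatment array, red names the stratified keratins studied, and grey ticks at 0 mark genes below the filter. Krt1 is drawn at its measured ratios, although its signal in the deleted RNAs was not well above background. In places high and low genes lie side by side, as Krt15 (1.04 and 1.09) and Krt19 (0.05 and 0.18) do. In others raised genes lie in a row, as Krt6b, Krt6a and Krt5 do.

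Of 18 other keratins of stratified epithelium and its appendages, 14 were on the array by name and 5 passed the filter. Of these 5, 3 were higher on both arrays, Krt1, Krt79 and Krt75, where 33.8% of all tested genes were, and none was 2-fold on both. Krt79, a keratin of hair follicle and sebaceous duct, had log2 ratios of 0.38 and 0.97, and Krt75, of the hair follicle, had 0.13 and 0.59. All 5 were dim, with a brightness of at most 421 in any RNA.

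Of the genes that anchor keratin filaments to the membrane, in desmosomes and hemidesmosomes, 15 of 16 passed the filter, 8 were higher on both arrays and 2 lower, and the median of the mean log2 ratios was 0.14. Among all 15131 tested genes, 5117 were higher and 5105 lower on both arrays. Those past 2-fold on both arrays were Col17a1 and Pkp1. Col17a1, the hemidesmosome collagen that ties Krt5 and Krt14 filaments of basal cells to the basement membrane, had log2 ratios of 2.62 and 2.03, a mean of 2.33 ± 0.41 (limma adjusted p 0.0883). Pkp1, a desmosomal plaque protein of stratified epithelium, had 1.54 and 1.28, a mean of 1.41 ± 0.19 (limma adjusted p 0.0883). Itgb4, the integrin subunit that binds plectin in the hemidesmosome, had 1.15 and 0.06. Median centring brought the count to 4, and scaling of the arrays to 1 spread brought it to 1.

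Of the transcription factors and receptors known to act on keratin genes, 19 of 20 passed the filter, 13 were higher on both arrays and 4 lower, with a median of 0.15. For comparison, 5117 of all 15131 tested genes were higher and 5105 lower on both. Trp63, the p63 gene that basal cells need and that acts on Krt5 and Krt14, had log2 ratios of 1.65 and 1.55, a mean of 1.60 ± 0.07 or 3.03-fold (limma adjusted p 0.0653). Vdr, the vitamin D receptor, had 2.04 and 1.44, a mean of 1.74 ± 0.43 (limma adjusted p 0.0991). These 2 were the ones past 2-fold on both arrays.

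Of the genes of suprabasal cells and the cornified envelope, 12 of 18 passed the filter, and 4 were higher and 4 lower on both arrays, with a median of 0.02. Both counts are near the share over all 15131 tested genes, of which 5117 were higher and 5105 lower on both. Dapl1, a gene of early epithelial differentiation, had log2 ratios of 2.31 and 3.25, a mean of 2.78 ± 0.67 (limma adjusted p 0.0968). Lor, which encodes the envelope protein loricrin, had 1.41 and 1.09, a mean of 1.25 ± 0.22 (limma adjusted p 0.0947). Ivl, which encodes involucrin, another envelope protein, had -2.52 and -0.91, and Sprr1a, a small proline-rich envelope protein, had -1.08 and -0.91. Krt10 therefore shared its direction with Dapl1 and Lor and not with Ivl and Sprr1a. Lgals7 had -0.94 and 2.16, with the vehicle RNA at 1201 and the other RNAs at 142 to 271, the same RNA that was highest for Krt4 and the dimmer probe of Krt13. With 1 array left out, 4 genes of this list were past 2-fold, whichever array was left out. Krt5, Krt14, Krt10, Col17a1, Vdr and Dapl1 are among the genes that the study selected on these arrays, so their direction here is not independent evidence.

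The 5 tested genes nearest to the mean of Krt5 and Krt14 in the plane of the 2 log2 ratios, by Euclidean distance, were Car12, Expi, 1110032A04Rik, Mia1 and Palmd. Car12, a membrane carbonic anhydrase, lay at a distance of 0.084 with log2 ratios of 2.04 and 1.83. Expi, an extracellular proteinase inhibitor, lay at 0.201 with 2.22 and 2.04. 1110032A04Rik, an uncharacterised gene by its array name, lay at 0.292 with 1.94 and 2.13, Mia1 at 0.324 with 1.82 and 2.04, and Palmd at 0.371 with 1.74 and 1.80. The likeness rests on 2 arrays, and Expi, Mia1 and Palmd are also in the study's own selection.

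Promoter windows were found for 4 of the 10 members in the RefSeq table used here (GRCm38.p6, a later build than that of the probes): Krt5, Krt10, Krt14 and Krt13, the last with 2 windows. Only those of Krt5 and the first of Krt13 lie at the outer end of the gene. The windows of Krt14, Krt10 and the second of Krt13 do not, so the distances given for Krt10 are from the start in the table and not from the outermost start of the gene. The 250 bases before the start are printed for Krt5 and Krt10, as the 2-fold members of the basal and the suprabasal layer, both on the minus strand, with the TATA-type letters in capitals.
Krt5, chr15:101712906-101713155: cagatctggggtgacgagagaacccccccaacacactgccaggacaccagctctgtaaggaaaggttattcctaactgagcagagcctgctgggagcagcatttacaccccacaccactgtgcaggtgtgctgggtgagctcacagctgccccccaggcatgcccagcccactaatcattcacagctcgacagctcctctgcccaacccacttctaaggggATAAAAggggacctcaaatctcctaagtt
Krt10, chr11:99389365-99389614: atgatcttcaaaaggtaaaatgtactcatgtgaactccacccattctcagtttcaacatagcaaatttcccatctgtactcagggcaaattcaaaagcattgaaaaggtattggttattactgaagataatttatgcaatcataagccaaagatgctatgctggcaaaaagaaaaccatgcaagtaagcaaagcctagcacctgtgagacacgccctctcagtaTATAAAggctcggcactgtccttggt
The letters ATAAAA began 29 bases before the start in Krt5 and in the outer window of Krt13, and TATAAA began 26 bases before it in Krt10. On both strands, 17.0% of the 32851 windows in the table held ATAAAA and 12.4% held TATAAA, and a window with TATAAAA holds both. The AP-1 letters TGANTCA occurred in both windows of Krt13, where 6.75% of all windows held them. AACAAT and ACAAAG, cores of Sox binding sequences that 9.42% and 16.5% of all windows held, and the AP-2 letters GCCNNNGGC, which 13.7% held, were in none of the 5 windows. This says only that these letters are absent from these windows.

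**Figure D5:**
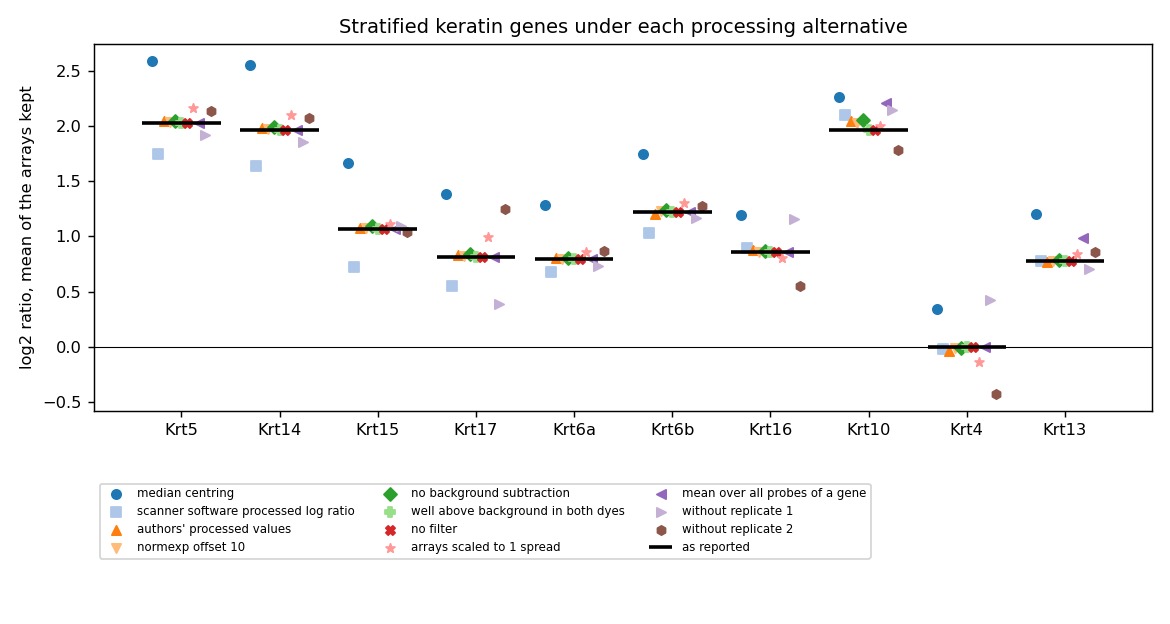
Log2 ratio of each of the 10 stratified keratin genes, as the mean of the arrays kept, under 11 processing alternatives (symbols) and as reported (black lines). Krt5 ranges from 1.74 to 2.59 and Krt10 from 1.78 to 2.26, whereas Krt4 lies on both sides of 0, from -0.43 to 0.42.

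Across 11 alternatives of processing, Krt5 had a mean log2 ratio of 1.74 to 2.59, Krt14 of 1.63 to 2.55, Krt15 of 0.72 to 1.67 and Krt10, by its brighter probe or with both averaged, of 1.78 to 2.26. The lowest values of the basal 3 came from the scanner software's ratios and the highest from median centring. With median centring the median of all tested probes lay at 0.38 on the treatment array and 0.02 on the genotype array, so that part of every member's higher value under it is shared by all probes. Krt17, with 0.38 to 1.38, had the widest range of the genes that kept 1 direction.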

How the data were processed

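RNA of mouse prostaspheres was measured on 2 two-colour Agilent arrays. Per the labels, the submitters' processing notes name limma. The scanner software, Feature Extraction 10.5.1.1, gave the deposited mean intensity of each spot, the median intensity of its local background, a log10 ratio of background-subtracted and dye-normalized signals, and marks for outlier, saturated and well-above-background spots (other values, 0 or 1, per the file headers). The authors also deposited a table of log2 ratios, whose processing steps are not given in the sources used here. Scale and direction of that table were read by setting it against the scanner ratios, and whether it was centred beyond loess is not known. The headers name mm9 as the build of the probe positions.

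From the mean and background intensities, background was corrected by normexp with an offset of 50 in limma 3.58.1 (R 4.3.3), control spots were left out (1639 of 45018), and loess was run within each array with outlier spots (126 and 130) at weight 0. No spot was saturated (0). Replicate spots were averaged to 41174 probes. Those well above background in either dye on both arrays (22731, of 15131 genes) were tested by lmFit and eBayes, mean against 0, 2-sided, Benjamini-Hochberg over all tested probes, with 1 residual degree of freedom (prior 2.75, prior SD 0.119). A size rule with no test took genes at a log2 ratio of at least 1 in 1 direction on each array. The brightest tested probe stood for its gene. Brightness per RNA is after Aquantile scaling between arrays. The test was also tried on simulated data, whose spread was drawn from the prior fitted to these arrays. The number of arrays limits the precision.

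Named are all members, Sox9, members of the lists that were 2-fold on both arrays, the 5 genes nearest to Krt5 and Krt14, and the partner pairs. Itgb4, Ivl, Sprr1a, Lgals7, Krt7, Krt8, Krt18, Krt19, Krt20, Krt75, Krt79, Myod1, Myog, Dcn, Col1a2 and Epcam were named after their values were seen. Members and lists were chosen with earlier results of these data known. Tables and figures were made with Python 3.11.15, pandas 2.3.3, numpy 2.4.6 and matplotlib 3.10.9.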

Additional observations from a re-analysis of the deposited data

Results flagged for a closer look

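Krt4 and Krt8 had opposite signs in the 2 comparisons. The log2 ratio of Krt4 was -0.427 in the genotype and 0.422 in the treatment comparison. For Krt8 it was 0.0125 and -0.738 by its brightest probe, the first of which is close to 0, and its other probe was lower on both arrays. Neither difference was tested, since each comparison is 1 array.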

How the results depend on the processing

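Of 80 values of single keratin genes under alternatives with a test, 66 kept direction and side of the threshold, 13 passed an adjusted p of 0.05 that they had not passed, and 1 turned in sign, Krt4 with median centring (0.338). Of 30 with no test, 28 moved by less than their SD, 1 moved further and 1 turned in sign, Krt4 (-0.427 to 0.422 with 1 array left out). With 2 arrays, leaving 1 out always moves a mean by less than its SD. The 8 genes with 1 probe cannot move when probes are averaged. The 28 were therefore largely fixed in advance and do not measure stability. The count of keratin probes past the threshold, 0 of 12 as reported, was 5 with the authors' values and 11 with median centring. The count over all probes was 2 as reported, 68 (50 higher) with the authors' values, 521 (490 higher) with median centring, and 0 after scaling the arrays to 1 spread, without background subtraction, with an offset of 10, with the scanner software's ratios and with the methods' t-test; at an unadjusted p under 0.05 those 5 took 3456, 4337, 3509, 3694 and 1934 probes. The median of the keratin genes, 0.96, was 1.52 with median centring, 0.835 with the scanner software's ratios, 0.975 with the authors' values, 0.978 without background subtraction, 1.05 scaled, 1.03 as a mean over probes, and 1.13 to 1.15 with 1 array left out. Keratin genes past 2-fold on both arrays, 5 as reported, numbered 3 with the scanner software's ratios and 3 scaled. All genes past 2-fold, 81 as reported, numbered 479 with the scanner software's ratios, 127 with the authors' values and 127 without background subtraction, and 253 to 319 with 1 array left out. Among the lists, anchors past 2-fold numbered 4 with median centring and 1 scaled, suprabasal genes 1 scaled and 4 with either array left out, and simple keratins 0 with median centring and 1 to 2 with 1 array left out. The causes were not tested. With 1 array kept there is no spread between arrays, so those are values with no test. All members were above background in each RNA, but background handling moved the dimmer probe of Krt10 from 2.46 to 4.77 at most. Krt1, not a member, was not well above background in the deleted RNAs. No paired analysis was possible because each array already holds both RNAs of its comparison.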
